A study of Mus musculus with 8 samples.

Results

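Of 8 mouse tumours, 2 had a high level of Sox10, and these Sox10-high tumours (tumours 4 and 6) are described here against the other 6, which are called Sox10-low. The members were chosen by the measured value itself. Sox10 was read from its probe set, and a log2 level above 7.5 made a tumour Sox10-high. Because the groups were made from these arrays, every difference between them is a description of these tumours by size and gap, and no test was run on it.

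All 8 tumours carry the same label and form 1 group in the study. Each was a primary tumour that grew under the skin of a mouse after injection of about 10000 neural crest cells, taken 48 h after infection with N-Myc. The cells were a mixture of p53+/- and p53-/- cells, so every tumour, Sox10-high or Sox10-low, carries N-Myc and reduced or absent p53. Tumours were collected at about day 50 from nude or C57Bl/6 hosts. The labels give neither the host nor the p53 genotype of a tumour, and they do not say whether the tumours came from separate animals or cell cultures. Whole-tumour RNA was measured, so fewer cells of a type and less RNA per cell cannot be told apart, and host tissue is part of each sample. No normal tissue or untransduced cells were analysed here.

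Sox10 is a transcription factor of migrating neural crest cells. It is kept on in Schwann cell precursors and other glia and in pigment cells, and it is switched off as crest cells become sympathetic neurons or chromaffin cells. Erbb3 is the neuregulin receptor on which Schwann cell precursors depend. Sympathetic neurons instead use a set of transcription factors that includes Hand2, Gata2, Gata3, Isl1 and Tfap2b, together with the enzymes that make noradrenaline.

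The arrays were alike in overall level, with medians of 5.63 to 5.75 on the log2 scale and 13061 to 13593 of 22180 genes above array background. Background is the 95th percentile of 1435 probe sets for odour, pheromone and bitter taste receptors on the same array, and it lay between 5.45 and 5.66. With 8 arrays, the number of tumours limits the precision.

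Sox10 stood at a log2 level of 8.32 in tumour 4 and 8.05 in tumour 6. In the 6 Sox10-low tumours it ranged from 5.43 to 6.30, with a median of 5.87 (SD 0.34, n = 6). The member just inside the limit was therefore tumour 6 at 8.05, and the tumour just outside it was tumour 7 at 6.30. Sox10 was above background in 6 of the 8 tumours, 4 of them Sox10-low.

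The other 4 markers, named beside Sox10 with earlier results of these data known, separated the same tumours. Their separation is therefore a description and not a check of the label. Fabp7, a fatty acid binding protein of Schwann cell precursors and radial glia, stood at 12.03 in tumour 4 and 11.51 in tumour 6, compared with a lowest level of 6.24, a median of 7.20 and a highest of 8.96 in the Sox10-low tumours. Its mean was 20.7-fold higher in the Sox10-high pair, the largest fold among the 5 markers, and its spread over the Sox10-low tumours was also wide (SD 1.01, n = 6). Erbb3 stood at 9.50 in tumour 4 and 8.58 in tumour 6, compared with 5.40 to 6.48 with a median of 5.88. Both of these genes were higher in each Sox10-high tumour than in any Sox10-low tumour.

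Mmd2, which encodes a membrane protein, stood at 10.03 and 9.72 in tumours 4 and 6, and the Sox10-low tumours lay close together between 5.93 and 6.63 (SD 0.25, n = 6). St18, a zinc finger transcription factor of the Myt1 family, stood at 9.27 and 9.43, against 5.23 to 7.65 with a median of 6.72. For St18 the Sox10-low tumours were themselves spread out (SD 1.02, n = 6), with tumours 2 and 5 highest and tumours 1 and 8 at or below background.

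**Figure D1:**
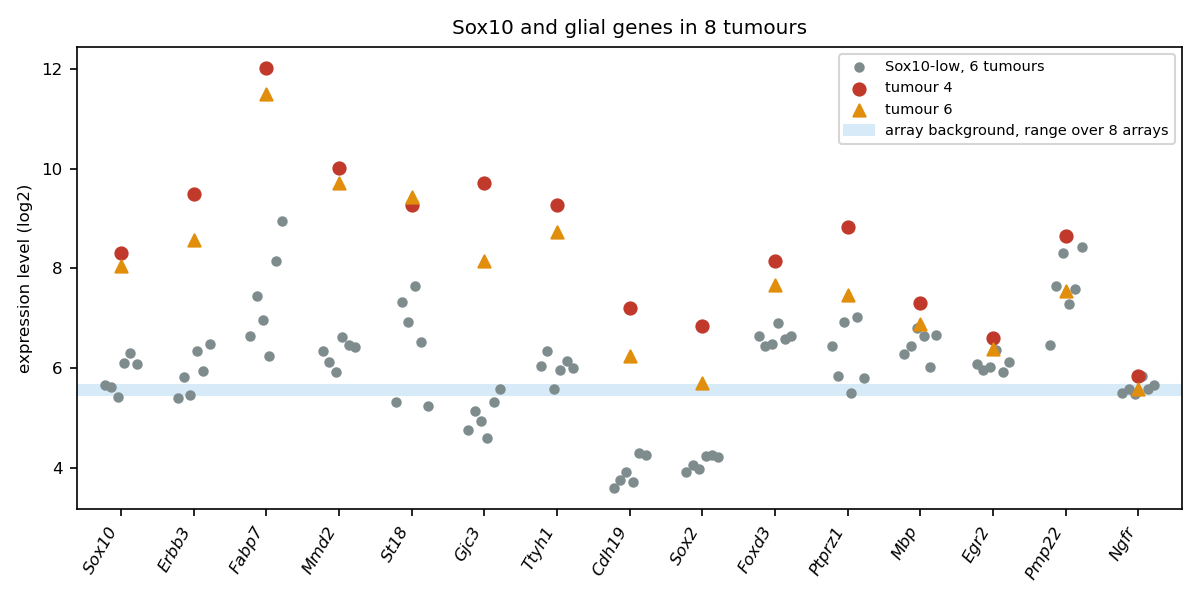
Log2 expression level of Sox10, the other markers and further glial genes (horizontal axis) in each of the 8 tumours; red circles are tumour 4, orange triangles tumour 6, grey circles the 6 Sox10-low tumours, and the blue band is the range of array background. Both Sox10-high tumours lie above all Sox10-low tumours for Sox10, Erbb3, Fabp7, Mmd2, St18, Gjc3, Ttyh1, Cdh19 and Sox2, while Pmp22 and Ngfr overlap.

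The promoter sequences of some of these genes are shown because Sox10 binds DNA through an HMG box, whose recognition letters include ACAAAG and ACAATG. The windows are the 250 bases before the annotated start, from RefSeq on GRCm38.p6, written 5′ to 3′ on the gene's strand. The table holds no entry for Sox10, Erbb3 or St18, so Mmd2 and Fabp7, the markers it does hold, are printed, followed by Sema3d and Sox2, genes higher in both Sox10-high tumours whose windows hold the letters. Capitals mark ACAAAG or ACAATG on either strand. Mmd2 lies at chr5:142608753-142609002 on the minus strand, Fabp7 at chr10:57784673-57784922 on the plus strand, Sema3d at chr5:12382916-12383165 on the plus strand and Sox2 at chr3:34649745-34649994 on the plus strand.
Mmd2: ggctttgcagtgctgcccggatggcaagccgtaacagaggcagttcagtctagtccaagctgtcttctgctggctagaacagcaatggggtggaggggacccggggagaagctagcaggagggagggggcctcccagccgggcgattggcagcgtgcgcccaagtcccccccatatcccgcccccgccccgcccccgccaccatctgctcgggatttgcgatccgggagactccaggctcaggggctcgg
Fabp7: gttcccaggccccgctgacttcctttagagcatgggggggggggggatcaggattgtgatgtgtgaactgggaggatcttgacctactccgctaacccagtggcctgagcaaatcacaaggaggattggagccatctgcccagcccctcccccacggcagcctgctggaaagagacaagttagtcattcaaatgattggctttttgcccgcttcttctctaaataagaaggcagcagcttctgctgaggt
Sema3d: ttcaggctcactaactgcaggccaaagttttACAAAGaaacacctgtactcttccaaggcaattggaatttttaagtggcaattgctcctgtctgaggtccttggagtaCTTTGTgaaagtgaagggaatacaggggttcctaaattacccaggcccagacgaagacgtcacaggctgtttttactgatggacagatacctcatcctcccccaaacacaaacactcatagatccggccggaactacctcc
Sox2: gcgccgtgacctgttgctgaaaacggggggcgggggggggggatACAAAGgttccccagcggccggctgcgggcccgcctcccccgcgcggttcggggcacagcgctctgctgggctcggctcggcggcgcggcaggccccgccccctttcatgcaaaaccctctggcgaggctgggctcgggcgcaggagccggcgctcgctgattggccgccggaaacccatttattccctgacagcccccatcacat
The windows of Mmd2 and Fabp7 hold neither motif, that of Sema3d holds ACAAAG at 2 places and that of Sox2 at 1. Over all 32851 promoter windows of the table, 25.24% held at least 1 of the motifs, and over the 20520 windows of genes on the array 22.25% did. Among genes higher in both Sox10-high tumours, 32 had a window in the table, and 7 of their 37 windows held a motif (18.92%). A match is a description of the letters, and a window without one says only that these letters are not in it.

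Genes with a clear separation were counted next. A gene was counted as higher in both when the lower of tumours 4 and 6 exceeded the highest Sox10-low tumour by at least 1 log2 unit, a 2-fold step, with both above background. The smallest distance between the groups is called the gap. By this rule 50 of 22180 genes (0.225%) were higher in both and 7 (0.0316%) were lower in both. Since Sox10 itself chose the groups, these shares are the background for the lists below and nothing more is read from them. Genes higher without any overlap, whatever the gap, numbered 1324 (5.97%), and genes lower without overlap 1029 (4.64%). Of the 22180 genes, 14790 were above background in at least 1 tumour, and only these could be counted. The shares over genes above background are therefore larger, which matters for lists made mostly of such genes. Leaving out tumour 4 or tumour 6, which relaxes the rule to a single high tumour, gave 181 and 210 higher genes, and 110 and 25 lower genes. Leaving out tumour 5 or tumour 8 gave 20 and 11 lower genes.

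The 50 genes had a median gap of 1.40 and a median difference of means of 2.17 log2 units, from 1.39 to 4.37. Over all genes the median difference was 0.02. Tumours 4 and 6 were within 1 log2 unit of each other for 40 of these genes and within 0.5 for 26, and tumour 4 was the higher for 23 and tumour 6 for 27. The median distance between the pair was 0.45 log2 units over the 50 genes, compared with 0.21 over all genes and 0.24 over genes above background. The nearest Sox10-low tumour was most often tumour 8, for 17 genes, and tumour 1 was nearest for 1. They lay on 17 chromosomes, and only Antxr2 and Prdm8 were neighbours in the gene order of GRCm38.p6. Just inside the limit were Plxnd1 with a gap of 1.03 and Prdm8 with 1.01, and just outside were Hmcn1 and Fzd7, whose gaps of 0.996 and 0.992 fell short of it.

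Of the 50, 23 genes were above background in every Sox10-low tumour, 14 in some and 13 in none. For these 13 the Sox10-low level is only an upper bound. When levels below background were raised to it, a setting chosen after seeing the data, 43 of the 50 kept a gap of at least 1. The others were Cdh19, Fndc3c1, Frzb, Sema3d, Lgals2, Sox2 and Ebf2, each below background in all 6 Sox10-low tumours, with gaps over the raised levels from 0.0726 for Sox2 to 0.891 for Frzb. Of the 7 lower genes 6 kept the gap, and A830009L08Rik did not.

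Of the 50 genes, 7 belong to the glial list. Gjc3, a connexin of myelinating glia, stood at 9.71 in tumour 4 and 8.14 in tumour 6, compared with 4.59 to 5.58 in the Sox10-low tumours. With Sox10-low levels raised to background, its mean was at least 10.1-fold higher in the pair. Ttyh1, a membrane protein of neural stem cells and glia, stood at 9.28 and 8.74, against 5.59 to 6.34, a difference of 7.98-fold. Neither gene overlapped between the groups.

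Cdh19, a cadherin of Schwann cell precursors, stood at 7.20 in tumour 4 and 6.24 in tumour 6, and was below background in all Sox10-low tumours. Sox2, a transcription factor of neural progenitors and immature Schwann cells, stood at 6.85 and 5.71, and was likewise below background in the other 6. For Sox2 in particular, tumour 6 was barely above its own background of 5.54. Adgrg6, an adhesion receptor that Schwann cells need for myelination, stood at 7.76 and 6.66 against 4.34 to 5.24.

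Further genes among the 50 encode regulators of early neural cells. Nhlh1, a bHLH factor of newly formed neurons, stood at 7.95 in tumour 4 and 8.89 in tumour 6 and was below background in each Sox10-low tumour, which makes the mean of the pair at least 7.14-fold higher. Nfia, a factor of early gliogenesis, stood at 9.18 and 8.84 against 6.21 to 7.31. Ebf2 stood at 6.46 and 7.57 and was below background elsewhere, and its other probe set was at background in all 8 tumours and showed no gap. Rwdd3 was the other gene of the 50 with an additional probe set that showed no gap, and the remaining 48 genes had 1 probe set each.

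Secreted factors and membrane proteins were also in the group. Ptn, the growth factor pleiotrophin, stood at 9.09 and 8.57 against 5.77 to 6.56, a difference of 5.73-fold. Nrn1, a membrane-anchored protein that promotes neurite growth, stood at 7.22 and 8.19 and was below background in the Sox10-low tumours, at least 4.34-fold above their mean. Gpc3, a glypican, stood at 9.65 and 9.56, against 5.96 in tumour 8 and 7.22 to 7.81 in the other Sox10-low tumours. Capn6, a calpain that lacks protease activity, stood at 9.12 and 8.70 against 5.41 to 6.26.

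The 50 also held components of signalling pathways, a transporter and a cyclin. Lef1, a transcription factor of the Wnt pathway, stood at 7.77 in tumour 4 and 10.07 in tumour 6, compared with 5.56 to 6.57. Frzb, a secreted Wnt antagonist, was the reverse in order, with 7.61 in tumour 4 and 6.53 in tumour 6, and below background in the others. Bmp7, a BMP ligand, stood at 8.13 and 8.17 against 5.99 to 6.85. Slc38a3, a glutamine transporter, stood at 7.36 and 7.24 and was below background in the rest. Ccnd2, which encodes cyclin D2, stood at 8.59 and 8.71 against 6.08 to 7.15.

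**Figure D2:**
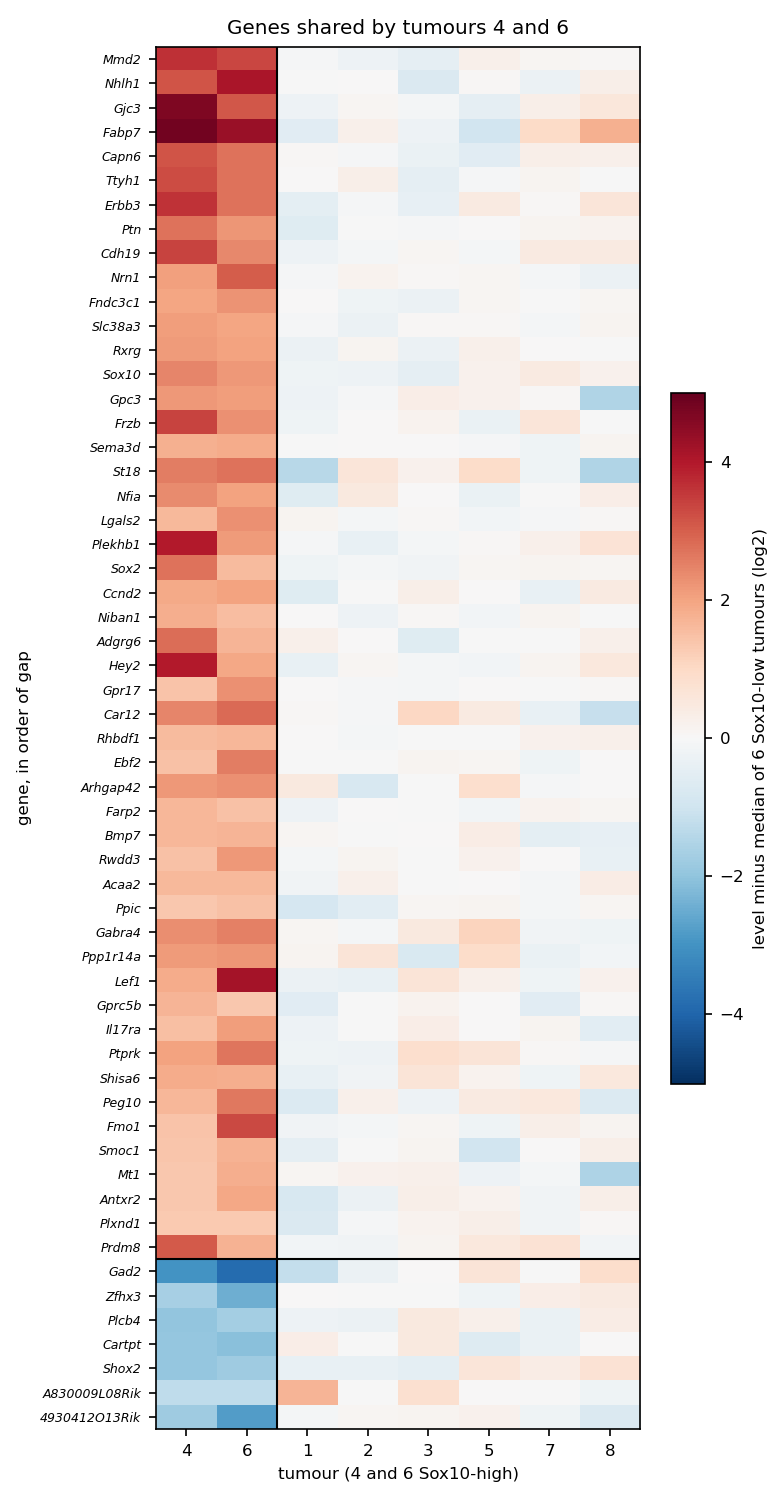
Level of each of the 50 genes higher and 7 genes lower in both Sox10-high tumours (rows, in order of gap) in the 8 tumours (columns), as log2 level minus the median of the 6 Sox10-low tumours, red for higher and blue for lower. Tumours 4 and 6 stand apart from the other columns in every row, and Gjc3, Hey2 and Lef1 show unequal levels within the pair.

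The Schwann cell precursor and glial list held 32 genes, of which 29 were measured. Of these, 7 were past the gap rule (Sox10, Erbb3, Fabp7, Sox2, Cdh19, Gjc3 and Ttyh1), 14 were higher without overlap and 0 were lower without overlap. Over all genes these shares were 0.225%, 5.97% and 4.64%. The median difference over the 29 was 0.63. The mean level of the list was 7.54 in tumour 4 and 6.83 in tumour 6, compared with 5.85 to 6.17 in the Sox10-low tumours. The list holds Sox10, which made the groups, and Erbb3 and Fabp7, which were named with it as markers, so its counts are a description only.

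Within the list, some genes separated the groups clearly and others did not. Foxd3, a crest and Schwann cell precursor factor, stood at 8.15 and 7.67 against 6.44 to 6.91, and Ptprz1, a receptor phosphatase of glial progenitors, at 8.83 and 7.47 against 5.49 to 7.03. The myelin genes Mbp and Egr2 were separated by little: Mbp stood at 7.31 and 6.89 against at most 6.80, and Egr2 at 6.61 and 6.39 against at most 6.36. Pmp22, Ngfr and Cnp overlapped between the groups, and Mag and Mia were at or below background in all 8 tumours.

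Of 24 crest specifier and progenitor genes, 22 were measured; 1 was past the gap, 6 were higher without overlap and 0 lower, with a median difference of 0.44. The gene past the gap was Rxrg, a retinoid X receptor, at 7.44 in tumour 4 and 7.35 in tumour 6 and below background in the Sox10-low tumours. Ednrb, the endothelin receptor of migrating crest, was high in tumour 4 alone, at 8.63, while tumour 6 at 6.77 lay within the Sox10-low range of 5.93 to 7.34. Crabp1, a retinoic acid binding protein, was highest in tumour 6 at 12.05, and tumour 4 at 9.92 lay within the range of 6.97 to 10.36.

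The ligands and partners of Erbb3 differed less than Erbb3 itself. Of 9 measured neuregulin and ErbB genes, 0 were past the gap, 2 were higher without overlap and 1 was lower, and the median difference was 0.11. Erbb2, the kinase partner of Erbb3, stood at 6.22 and 6.20 against 5.36 to 5.85. Nrg1, the main neuregulin of axons, stood at 7.80 and 7.15, within the Sox10-low range of 6.78 to 8.58. Among 5 endothelin pathway genes none separated the groups, with a median difference of 0.08. Ece1, the converting enzyme, had the largest difference, at 8.65 and 9.58 against 7.02 to 8.71.

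The Notch pathway, through which neighbouring cells hold each other in a progenitor or glial state, had members on both sides. Of its 18 genes, 10 were higher without overlap, 2 were lower without overlap and 1 was past the gap, and the median difference was 0.63. Over all genes, 5.97% were higher and 4.64% lower without overlap, while 16 of these 18 were above background in all 8 tumours. The list mean was 7.78 and 7.52 in tumours 4 and 6 against 6.64 to 7.02. The gene past the gap was Hey2, a transcriptional repressor switched on by Notch, at 10.15 in tumour 4 and 8.10 in tumour 6, compared with 5.81 to 6.72.

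Other Notch target genes ran the same way with smaller gaps. Heyl stood at 8.73 and 8.02 against 6.26 to 7.12, Nrarp at 8.35 and 7.95 against 6.24 to 7.19, and Hey1 at 8.999 and 8.51 against 7.71 to 8.17. The receptors Notch1, at 8.22 and 7.26 against at most 6.996, and Notch2, with a gap of 0.41, also lay above all Sox10-low tumours, as did Mfng, a glycosyltransferase that modifies Notch, at 8.94 and 9.48 against 6.21 to 8.47. The ligands Dll1, at 6.06 and 5.90 with a lowest Sox10-low level of 6.32, and Jag2, at 9.25 and 9.26 against 9.43 to 9.90, were the 2 lower genes. Endothelial cells also use Notch: the endothelial list mean was 7.54 in tumour 4 and 6.996 in tumour 6, compared with 6.47 to 7.20, with 2 of 14 members higher without overlap and all 14 above background in at least 1 tumour, and its part in the Notch values was not tested.

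Of the 7 genes lower in both Sox10-high tumours, Gad2 had the widest gap. Gad2, an enzyme that makes the transmitter GABA, stood at 6.42 in tumour 4 and 5.57 in tumour 6, compared with 8.22 to 10.29 with a median of 9.43 in the Sox10-low tumours. Cartpt, the precursor of the CART neuropeptide, stood at 8.39 and 8.25 against 9.69 to 10.83. Shox2, a homeobox factor, stood at 6.83 and 7.01 against 8.30 to 9.52. The groups did not overlap for any of the 3 genes.

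Zfhx3, a large zinc finger and homeobox factor, stood at 8.67 and 7.88 against 10.10 to 10.80, and Plcb4, a phospholipase C, at 8.71 and 8.95 against 10.32 to 11.15. The remaining pair of transcripts, A830009L08Rik and 4930412O13Rik, are long noncoding or unnamed loci with gaps of 1.07 each. Bmp3 and Tox, each with a gap of 0.98, lay just outside the limit.

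Sympathoadrenal transcription factors were lower in the pair as a list but unevenly so. Of 15 genes 13 were measured, and 6 were lower without overlap, 1 was higher and 0 passed the gap in both tumours, with a median difference of -0.54. The shares without overlap over all genes were 4.64% lower and 5.97% higher. The list mean was 8.97 in tumour 4 and 7.90 in tumour 6, compared with 9.04 to 9.43. Hand2 stood at 10.20 and 9.94 against 10.54 to 11.02, and Isl1 at 10.94 and 10.36 against 11.27 to 11.73, so both tumours kept these core factors well above background at slightly lower levels.

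Gata2 stood at 7.27 in tumour 4 and 5.45 in tumour 6, compared with 8.05 to 10.03, and Gata3 at 9.01 and 6.93 against 9.32 to 9.83. In both genes tumour 4 was a little below the Sox10-low range and tumour 6 far below it. The 17 measured catecholamine and secretory granule genes had a median difference of -0.38, with 3 lower without overlap and 0 higher. Their mean in tumour 4, 8.36, lay inside the Sox10-low range of 7.92 to 9.04, and in tumour 6 it was 7.11.

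General neuronal genes were slightly lower. All 26 were above background in every tumour, 7 were lower without overlap and 0 higher, and the median difference was -0.29. Without overlap, 4.64% of all genes were lower and 5.97% higher, shares taken over genes below background too. Nrcam and L1cam, neural adhesion molecules, differed most among those without overlap: L1cam stood at 9.56 and 8.71 against 9.72 to 10.67. Stmn2 and Tubb3 stayed at 11.77 or more in both tumours, so neuronal transcripts remained abundant in them.

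Cholinergic and enteric neuron genes leaned the other way, with a median difference of 0.57 over 11 genes, 2 of them higher and 1 lower without overlap. Slc18a3, the vesicular acetylcholine transporter, stood at 9.83 in tumour 4 and 10.68 in tumour 6, compared with 7.23 to 9.70, and Gfra1, the GDNF receptor, at 7.65 and 7.87 against 5.86 to 7.16. Ret, the signalling partner of Gfra1, was lower, at 7.67 and 8.29 against 8.33 to 10.21. Htr3a, a serotonin-gated channel of bridge cells between Schwann cell precursors and chromaffin cells, stood at 10.79 and 9.54 against 5.53 to 8.57, a gap of 0.98 just short of the limit. Over the 11 measured bridge cell and early neuroblast genes, 1 was higher and 2 were lower without overlap, with a median difference of 0.15.

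Lists for further cell types also held genes higher without overlap, beside 5.97% over all genes. Of 11 melanocyte genes, 2 were higher without overlap (Kit at 8.91 and 9.64 against 7.18 to 8.56, and Mitf at 6.32 and 6.09 against 5.52 to 5.91) and 0 were past the gap, and Tyr was below background in all 8 tumours. Of 13 sensory neuron genes 3 were higher without overlap, with a median difference of 0.29. Of 16 mesenchymal-type neuroblastoma genes 4 were higher without overlap, with a median difference of 0.26, and among these Smad3, a TGF-beta effector, stood at 6.70 and 6.83 against 5.30 to 6.11. Of 12 oligodendrocyte and astrocyte genes, 3 were higher without overlap and 1 was past the gap, Gpr17, a receptor of oligodendrocyte precursors. Gpr17 had a gap of 1.38 and stood at 6.9997 in tumour 4 and 7.83 in tumour 6, compared with 5.48 to 5.62 in the Sox10-low tumours.

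Markers of host cells were measured in the same arrays. Of 17 macrophage genes, 0 separated the groups, and the list mean of 7.78 in tumour 4 and 7.94 in tumour 6 lay inside the Sox10-low range of 7.21 to 8.23. Of 16 fibroblast and pericyte genes 0 separated the groups, with means of 7.52 in tumour 4 and 8.24 in tumour 6, compared with 7.42 to 8.37. T cell genes were near background throughout: 7 of 9 were at or below it in all 8 tumours. The 23 measured cell cycle genes had a median difference of 0.03, with 1 higher and 1 lower without overlap. The probe set for the endogenous N-Myc gene, Mycn, stood at 6.48 and 5.99 against 6.53 to 7.11, and it is not known here whether it detects the transduced copy.

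**Figure D3:**
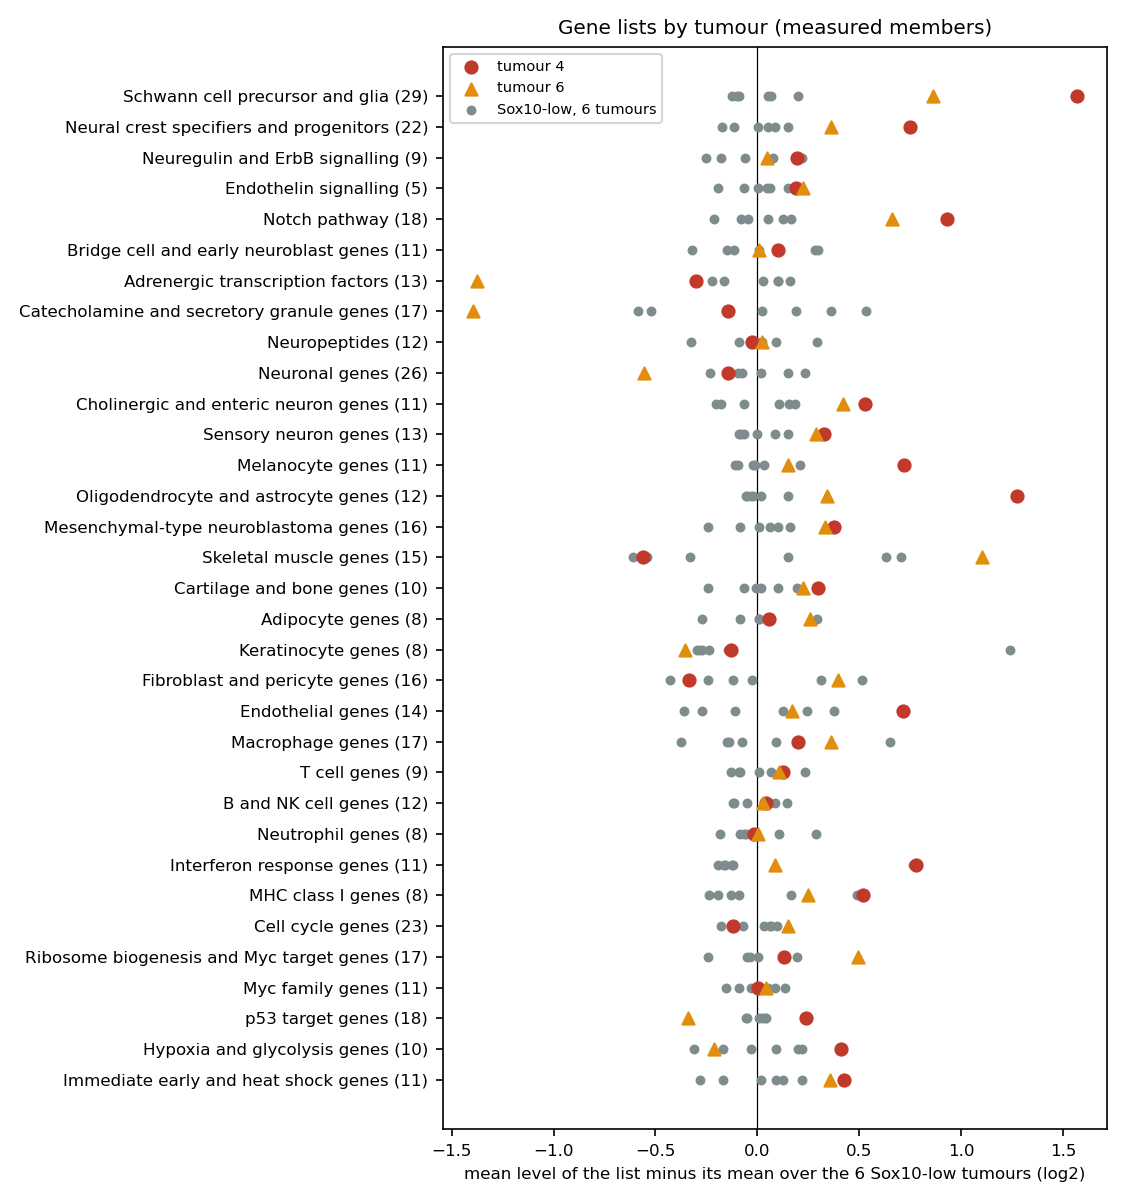
Mean log2 level of each gene list in each tumour minus the mean of the same list over the 6 Sox10-low tumours (horizontal axis), with the number of measured genes in brackets; red circles are tumour 4, orange triangles tumour 6 and grey circles the Sox10-low tumours. The glial and Notch lists lie to the right of all Sox10-low tumours in both. By smaller distances, so do the crest specifier, endothelin, cholinergic and enteric, sensory neuron, and oligodendrocyte and astrocyte lists. The mesenchymal-type, cartilage and bone, and immediate early lists do so as well. The adrenergic transcription factor list lies to the left in both, and the skeletal muscle list separates tumour 6 from tumour 4.

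The 2 Sox10-high tumours also differed from each other. Tumour 4 exceeded tumour 6 by at least 1 log2 unit for 416 genes (1.88%), and tumour 6 exceeded tumour 4 for 315 (1.42%). Each tumour is 1 array, so this difference has no replicate check. Tumour 4 was at least 1 unit above all 7 other tumours for 126 genes (0.568%) and below all of them for 10 (0.0451%). Tumour 6 was above the other 7 for 86 genes (0.388%) and below them for 71 (0.32%). Against the 6 Sox10-low tumours alone, tumour 4 was above for 210 genes (0.947%) and below for 25 (0.113%), and tumour 6 above for 181 (0.816%) and below for 110 (0.496%), and both comparisons share the same 6 tumours.

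**Figure D4:**
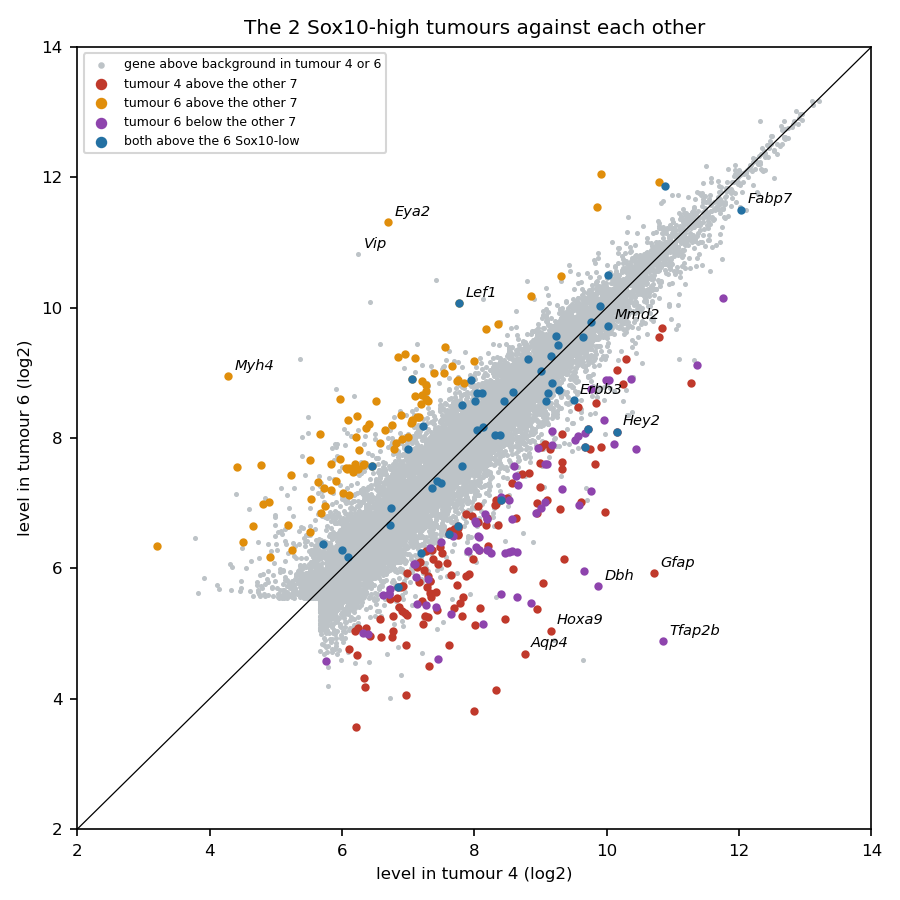
Log2 level of each gene above background in tumour 4 or 6, with tumour 4 on the horizontal and tumour 6 on the vertical axis and a line of equal levels; blue marks genes higher in both than in the Sox10-low tumours, red genes of tumour 4 alone, orange and purple genes of tumour 6 alone above and below the other 7. Blue points lie on both sides of the line at a median distance in level of 0.45 (0.24 over genes above background), while Gfap, Aqp4 and Hoxa9 lie on the side of tumour 4, Eya2 and Myh4 on the side of tumour 6, and Tfap2b and Dbh far below it.

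A set of astrocyte genes was higher in tumour 4 than in tumour 6. Gfap, the intermediate filament of astrocytes and non-myelinating Schwann cells, stood at 10.71 in tumour 4, 5.93 in tumour 6 and 5.05 to 5.62 in the Sox10-low tumours, which makes tumour 4 27.5-fold above the next tumour. Aqp4, the water channel of astrocyte end feet, stood at 8.77 in tumour 4 and below background in the other 7, at least 9.11-fold above their mean. Aldoc, Slc1a3 and Aldh1l1, further genes of astrocytes, stood at 9.98, 7.70 and 7.43 in tumour 4 and at 6.86, 6.60 and 5.36 in tumour 6.

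The mean of the oligodendrocyte and astrocyte list was 6.95 in tumour 4, 6.03 in tumour 6 and 5.63 to 5.83 in the Sox10-low tumours. Of its 12 genes, 4 were at least 1 unit higher in tumour 4 than in tumour 6 and 0 the reverse. Gpr17, of the same list, was higher in tumour 6 by less than 1 unit, at 7.83 against 6.9997 in tumour 4. Outside the lists and chosen after their values were seen, Bcan, Mlc1 and Slc6a11, which are also astrocyte genes, stood at 8.46, 8.95 and 9.03 in tumour 4 and at 5.23, 5.37 and 5.77 in tumour 6. Olig2, which marks oligodendrocyte precursors, was at or below background in all 8 tumours, and Mog stood at 6.15 and 6.16 within the Sox10-low range of 5.64 to 6.44. The part of astrocyte-type cells in the other tumour 4 values was not tested.

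Pigment genes differed within the pair too. Dct, a melanin synthesis enzyme, stood at 8.01 in tumour 4 and below background in the other 7 tumours, at least 5.40-fold above their mean. Pmel, a melanosome protein, stood at 6.76 in tumour 4 and below background elsewhere. Tyr and Tyrp1, further melanin enzymes, were below background in tumour 4 as in the rest.

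A run of neighbouring HoxA genes, which give crest and trunk cells their position along the body axis, was high in tumour 4. Hoxa9 stood at 9.15 in tumour 4 and below background in the other 7, at least 11.9-fold above their mean, and Hoxa5 at 8.33, at least 6.72-fold above the mean of the others, which were below background. Chosen after their values were seen, Hoxa4, Hoxa6 and Hoxa7 stood at 7.62, 9.35 and 7.79 in tumour 4 and at 4.82, 6.15 and 5.47 in tumour 6. Their Sox10-low ranges were 5.02 to 6.18, 5.95 to 6.72 and 5.24 to 5.86. Hoxa6 was above background in all 8 tumours, and Hoxa4 and Hoxa7 in some of the Sox10-low tumours. These 5 genes were the members past the limit among 9 measured HoxA genes, and none of the 10 HoxB, 9 HoxC and 8 HoxD genes passed it in tumour 4. Hoxa4, Hoxa5, Hoxa6, Hoxa7 and Hoxa9 are consecutive in the gene order of GRCm38.p6, while Hoxa2, Hoxa3 and Hoxa10 were at or below background in all 8 tumours.

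Tumour 4 was low for a group of noncoding genes on chromosome 12. Of the 10 genes at least 1 unit below all other tumours, 4 (Mir493, Mir487b, Mir679 and the small RNA gene DQ267101) lie between Dlk1 and Dio3, an imprinted region whose long noncoding transcripts carry many microRNAs. From Dlk1 to Dio3, 54 of the 22180 genes were measured. Mir493 stood at 4.84 in tumour 4, 7.07 in tumour 6 and 6.47 to 8.69 in the Sox10-low tumours. Chosen after this was seen, the 43 genes between Dlk1 and Dio3 that were above background in at least 1 tumour had their lowest level in tumour 4 for 34 and in tumour 6 for 1. The share of all genes with their lowest level in either tumour was not computed, so these counts are a description only. The median level of the 43 genes relative to the Sox10-low median was -1.22 in tumour 4 and -0.69 in tumour 6, and among the Sox10-low tumours it ran from -0.79 in tumour 8 to 0.41 in tumour 2.

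Dlk1, at the edge of this region and expressed from the other parental copy, stood at 11.10 in tumour 4 and 11.46 in tumour 6, compared with 10.68 to 11.47, so it overlapped. The long transcripts Meg3, at 6.51 and 6.56 against 6.52 to 7.49, and Rian, at 10.96 and 11.03 against 11.24 to 11.80, were near or below the lower edge of that range in both. Mature microRNAs of the 3 named loci, from RefSeq on GRCm38.p6, are shown with the seed (bases 2 to 8) in capitals. For Mir487b only the 5p arm was found. The array measures the precursor gene, so which arm is present is not known.
mmu-miR-493-5p: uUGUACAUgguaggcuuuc
mmu-miR-493-3p: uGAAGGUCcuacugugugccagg
mmu-miR-679-5p: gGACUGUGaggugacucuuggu
mmu-miR-679-3p: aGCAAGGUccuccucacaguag
mmu-miR-487b-5p: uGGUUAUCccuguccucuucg
The other genes below all 7 tumours in tumour 4 included Vip, a neuropeptide, at 6.24 against 10.82 in tumour 6 and 8.17 to 11.85 in the Sox10-low tumours, and Mab21l1, at 6.18 against 8.64 in tumour 6.

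Of the genes at least 1 unit below all other tumours in tumour 6 (0.32% of all), 4 were among the 13 adrenergic transcription factors and 3 among the 17 catecholamine and granule genes. Tfap2b, a transcription factor of sympathetic cells, stood at 4.88 in tumour 6, below background, against 10.85 in tumour 4 and 10.39 to 11.63 in the Sox10-low tumours, at least 51.4-fold lower than the mean of the other 7. Dbh, which makes noradrenaline, stood at 5.72 against 9.87 and 10.14 to 11.43. Slc18a1, a vesicular monoamine transporter, stood at 5.14, below background, against 8.14 and 7.09 to 9.42. In all 3 genes tumour 4 was near or within the Sox10-low range and tumour 6 far outside it.

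The same tumour was lowest for Gata2, Gata3 and Tbx2, transcription factors of the adrenergic list, with Tbx2 at 6.24 against 8.46 in tumour 4 and 8.59 to 9.48. Maoa and Maob, which break down monoamines, stood at 7.09 and 5.30 in tumour 6 and at 8.41 and 7.64 in tumour 4. Th, the first enzyme of catecholamine synthesis, stood at 8.59 in tumour 6, compared with 9.96 in tumour 4 and 9.17 to 11.34, and Slc18a2, the other vesicular monoamine transporter, did not separate, at 9.49 against 9.75 and 8.75 to 10.41. Ntrk3, a neurotrophin receptor, stood at 6.33 in tumour 6 and 8.03 in tumour 4, compared with 7.84 to 9.64.

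Genes at least 1 unit higher in tumour 6 than in all 7 other tumours included other neuronal regulators and transmitter genes. Eya2, a transcription cofactor, stood at 11.32 in tumour 6, 6.70 in tumour 4 and 6.19 to 7.58 in the Sox10-low tumours, 13.3-fold above the next tumour. Pou4f1, a sensory neuron factor, stood at 7.33 and below background in the other 7, at least 3.34-fold above their mean. Slc17a6, the vesicular glutamate transporter, stood at 9.24 against 6.85 in tumour 4 and 4.59 to 7.40, and Chat, which makes acetylcholine, at 7.21 against 5.83 and 5.02 to 6.04. Slc17a6 and Chat were named after their values were seen. Both were also above background in tumour 4, Slc17a6 in 1 Sox10-low tumour and Chat in 2.

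Ebf1, Nr2f1, Tbx1 and Irx5, developmental transcription factors also named after their values were seen, stood at 11.54, 8.61, 8.24 and 8.87 in tumour 6 and at 9.85, 7.28, 7.04 and 7.20 in tumour 4. Cdkn2a, the locus of the Ink4a and Arf tumour suppressors, stood at 8.01 in tumour 6, 7.003 in tumour 4 and 6.26 to 6.66 in the Sox10-low tumours, so both Sox10-high tumours lay above the rest. The p53 target gene Cdkn1a was the reverse, at 8.36 in tumour 6 and 10.30 in tumour 4, compared with 8.91 to 9.90. Over 18 measured p53 target genes the list mean was 7.06 in tumour 6 and 7.64 in tumour 4, compared with 7.35 to 7.44, and 0 genes of the list separated the pair from the other 6.

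Skeletal muscle genes set the pair apart. Of 15 muscle genes, 10 were at least 1 unit higher in tumour 6 than in tumour 4 and 0 the reverse, with a median difference of -1.55 for tumour 4 minus tumour 6. Myh4, a fast muscle myosin, stood at 8.96 in tumour 6, 4.28 in tumour 4 and 4.09 to 5.68 in the Sox10-low tumours, while Acta1, skeletal actin, stood at 10.43, 7.41 and 7.03 to 10.14. The list mean was 7.59 in tumour 6 and 5.93 in tumour 4, compared with 5.88 to 7.19, and the myogenic factors Myod1 and Myog were at 5.62 and 6.24 in tumour 6. Atp2a1, Myh4 and Acta1, among the 8 genes with the largest excess in tumour 6 over tumour 4, are muscle genes. Car3, another of the 8, stood at 9.21 in tumour 6, 5.36 in tumour 4 and 5.61 to 9.71 in the Sox10-low tumours. The part of muscle tissue in the other tumour 6 values was not tested.

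Sex chromosome genes also differed. Xist, the RNA of the inactive X chromosome, stood at 9.64 in tumour 4 and at 4.59 in tumour 6, and tumours 3 and 8 were the only others above background, at 10.08 and 11.09. The Y-linked genes Kdm5d and Uty stood at 6.70 and 6.78 in tumour 4 and at 6.64 and 6.38 in tumour 6, so tumour 4 showed both Xist and Y-linked transcripts while tumours 3 and 8 had Kdm5d and Uty below background. The part of sex in any other difference within the pair was not tested.

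**Figure D5:**
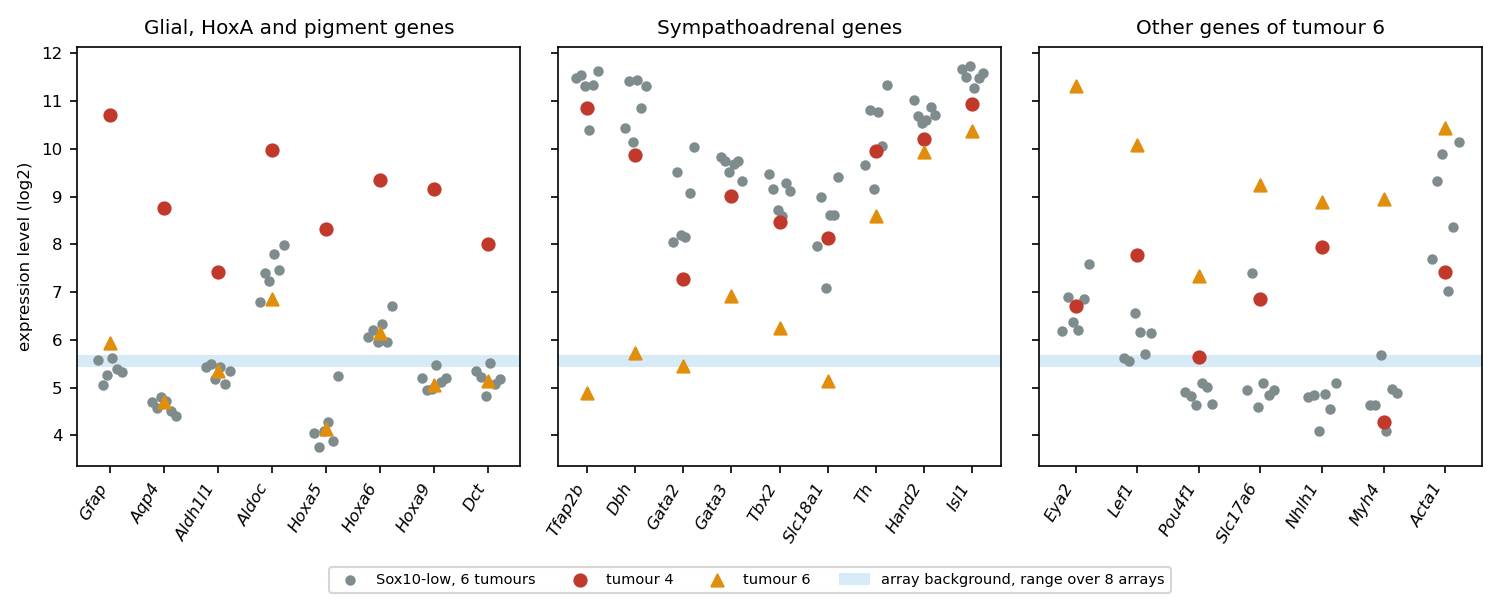
Log2 level in each of the 8 tumours of genes that set the Sox10-high tumours apart: glial, HoxA and pigment genes (left), sympathoadrenal genes (middle) and other genes of tumour 6 (right); symbols as for the plot of glial genes, with the range of array background as a band. Tumour 4 stands alone in the left panel, tumour 6 lies at or below background for Tfap2b, Gata2 and Slc18a1 in the middle panel, and for Nhlh1 and Lef1 in the right panel both Sox10-high tumours are above the rest.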

How the data were processed

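The authors deposited log2 expression values of 8 Affymetrix whole-transcript arrays, 1 per tumour, for 41345 probe sets. The submitters' processing notes name RMA and Partek 6.5 without their roles. Values span 2.07 to 13.61, which is how the log2 scale was judged. No source used here states the probe sets' genome build.

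The platform annotation gave 1 symbol to 23521 probe sets, several to 1814 and none to 16010. For each of 22180 genes, the highest-mean probe set with 1 symbol was used. Probe sets with several symbols or none were not named; 3 and 2 of them were higher in both Sox10-high tumours by the gap rule, and 0 and 3 lower. Background was the 95th percentile of 1435 receptor probe sets on the same array. A fold marked "at least" raises levels below background to it.

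The groups came from the Sox10 values, the members and gene lists were chosen with earlier results of these data known, and the labels give 1 group, so sizes and gaps are given and no test was run. Named genes are the 5 markers, the 15 genes with the largest gap in each direction, the 8 with the largest difference each way between tumours 4 and 6, list members past the gap, and the 2 members of each cell type or pathway list with the largest difference. Genes named beyond these were picked with their values in view. The 35 lists held 495 genes, of which 453 were measured; 10 were past the gap as higher and 1 as lower.

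Alternatives were the mean of all probe sets, arrays centred or quantile normalized again, another background or none, gaps of 0.5 and 2, and leaving out each tumour. Python 3.11.15, numpy 2.4.6, pandas 2.3.3 and matplotlib 3.10.9 were used. Promoter and microRNA sequences are RefSeq's, matched by gene identifier.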

Additional observations from a re-analysis of the deposited data

Results flagged for a closer look

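The level of 16 named genes and the mean of 4 lists, out of 118 values looked at, had 1 tumour farther from its nearest neighbour, relative to the whole range, than Dixon's critical value for 8 samples. Chance passes that value in about 1 in 20 groups, but that rate does not apply here, since the named genes include those chosen for the largest difference between tumours 4 and 6. In tumour 4 these were Aqp4 at 8.77, Dct at 8.01, Defa21 at 8.00, Gfap at 10.71, Hoxa5 at 8.33 and Hoxa9 at 9.15, with the melanocyte list mean at 5.91 and the oligodendrocyte and astrocyte list mean at 6.95. In tumour 6 they were Alpl at 7.88, Eya2 at 11.32, an immunoglobulin kappa variable gene at 7.55, Myh4 at 8.96, Pou4f1 at 7.33 and Slc10a4l at 6.34 on the high side, and Dbh at 5.72 and Tfap2b at 4.88 on the low side, with the adrenergic transcription factor list mean at 7.90.

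Tumour 5, which is Sox10-low, stood apart in the keratin gene Krt14 at 9.13, in S100a9 at 6.26 and in the keratinocyte list mean at 6.68. Defa21, a defensin gene of a family with near-identical copies, was below background in the other 7 tumours, and its probe set is uncertain for that reason.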

How the results depend on the processing

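The same 2 tumours passed the Sox10 limit under each scaling. The counts of 50 higher and 7 lower genes, and of 416 and 315 genes higher in tumour 4 and in tumour 6 of the pair, stayed within 1.5 times under other probe set summaries, scalings and background levels, with 44 to 55 higher and 6 to 7 lower genes. They moved with the gap required: at 0.5 they were 174, 57, 1504 and 1451, and at 2 they were 8, 0, 77 and 41. Leaving out a tumour gave 53 to 210 higher and 8 to 110 lower genes, the extremes without tumour 6 and without tumour 4. Fewer tumours can only widen a gap, so all 50 and all 7 genes had to remain past it, which is no check. The pair counts of 416 and 315 do not use tumours 1, 2, 3, 5, 7 or 8. Leaving out any of these could not change them, and they have no value without tumours 4 or 6. Over all combinations of the 83 named genes with a setting, the difference stayed within 1 SD of the Sox10-low tumours in 835 and moved further in 78, of which 76 were under leaving out a tumour. Over combinations of the 35 list medians with a setting, 350 stayed and 35 moved, 33 of the latter under leaving out a tumour. Levels near background limit the size of a difference, and with RMA values no count of molecules is available. No paired analysis was possible because the labels give 1 group.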

Other observations

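Several other lists were higher or lower in 1 Sox10-high tumour or in both. The interferon response list mean was 6.59 in tumour 4, just above the Sox10-low range of 5.62 to 6.57, and 5.90 in tumour 6, and Bst2, an interferon-induced membrane protein, stood at 7.75 and 7.16 against 5.79 to 7.11. The ribosome biogenesis and Myc target list mean was 9.79 in tumour 4, inside the Sox10-low range of 9.42 to 9.85, and 10.15 in tumour 6, with 4 of 17 genes higher without overlap, among them Rrp9 at 8.45 and 9.14 against 7.66 to 8.35. Immediate early and heat shock genes had means of 7.06 and 6.99 against 6.36 to 6.86, with 4 of 11 genes higher without overlap, among them Egr1 at 7.74 and 7.83 against 6.48 to 7.11.

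Of 11 genes of the Myc network, 2 were higher and 2 lower without overlap, with a median difference of -0.10. Mycn was among the lower. The higher 2 were Mxi1, a Max partner that opposes Myc, at 9.86 and 9.89 against 8.83 to 9.30, and Max, by little, at 10.34 and 10.59 against 9.97 to 10.32. Tac1, the precursor of substance P, stood at 5.69 and 5.61, barely above background, and below it in the 6 Sox10-low tumours. Dlx5, a homeobox factor, stood at 6.43 and 6.78 in tumours 4 and 6, within a Sox10-low range of 4.99 to 9.85.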
